A study of Gallus gallus with 4 samples.

Results

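The transcription regulators LHX5, SOX8 and SSBP3, and a row that joins the regulator HESX1 with IL17RD, stood among the transcripts that chick cranial neural crest carried at a higher level than trunk neural crest. Their rows were picked by gene name, as the table rows entered as LHX5, SOX8_CHICK, SSBP3_CHICK and ANF1_CHICK,I17RD_CHICK, and make up 4 of the 212 rows of the authors' deposited table. ANF1 is a protein entry name for HESX1, and I17RD for IL17RD, so the last row carries a pair of genes. The samples are GFP-positive, living cells sorted from dissociated chick embryo tissue. The cranial group has 2 libraries (A and B) of cranial neural crest at Hamburger-Hamilton stage HH9+, from embryos electroporated with the FoxD3 NC1 enhancer. The trunk group has 2 libraries (A and C) of trunk neural crest at stage HH14, from embryos electroporated with the FoxD3 NC2 enhancer. Every embryo was electroporated, the cells of a group are those in which that enhancer was active, and axial level, stage and enhancer cannot be told apart. The labels do not say whether libraries of a group came from separate pools of embryos.

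Neural crest cells leave the dorsal neural tube and migrate, and only those of the head normally form the cartilage and bone of the face, beside the neurons, glia and pigment cells that both axial levels produce. LIM homeodomain factors such as LHX5 act in complexes built around the adaptor LDB1, and SSBP proteins such as SSBP3 bind LDB1 and protect it from degradation. SOX8 belongs with SOX9 and SOX10 to the SoxE family of HMG-box factors, which act at several steps of crest formation. HESX1 is a paired-like homeodomain repressor of the anterior neural plate, needed for the forebrain and pituitary in mouse and human, and IL17RD (Sef) is a membrane protein that dampens FGF signalling.

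The deposited table gives 1 value per group and row, read as FPKM (fragments scaled to transcript length and to the size of the library), and no value per library. The spread between libraries and the read depth are thus unknown, and levels are given without SD, n or a counting error. The table is a selected list in which 100% of rows were marked significant by the authors and higher in cranial cells, so that the direction of the 4 member rows is a condition of being listed. Each row also has the authors' test score, and the log2 fold divided by that score is used below as an implied standard error (SE). That reading is an assumption, as the headers do not define the score. Genes outside the table have no value here, so neither the crest identity of the sorted cells (FOXD3, SOX10, SOX9, SNAI2, TFAP2A, ETS1 and PAX7, 0 of 7 listed) nor the scaling between groups could be checked. In bulk RNA, more cells that express a gene and more RNA per cell cannot be told apart.

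The 4 rows fell into pairs: LHX5 and SOX8 were many times higher in cranial cells, while SSBP3 and the combined HESX1 and IL17RD row were under 2-fold higher and were well expressed in the trunk too. In the authors' deposited table, 4 of the 4 rows had a q under 0.05, as did 100% of all rows. LHX5 and SOX8 passed each stricter limit on q or fold tried here and the other pair none. These 2 of the 4 rows had a q under 0.01, against 63.2% of all rows, and a q under 0.001, against 38.7% of all rows. Likewise 2 of the 4 rows differed at least 2-fold, against 81.6% of all rows, and at least 4-fold, against 54.2% of all rows. At their implied SEs (0.90 and 0.68), LHX5 and SOX8 could be listed only with a fold above 4. Passing the limits on fold was thus a condition of their being listed, and the limit on q partly sets the split into pairs. The median log2 fold of the 4 rows was 2.04 in the authors' deposited table, beside 2.12 for all 212 rows. That median lies between the pairs and describes none of the 4.

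**Figure D1:**
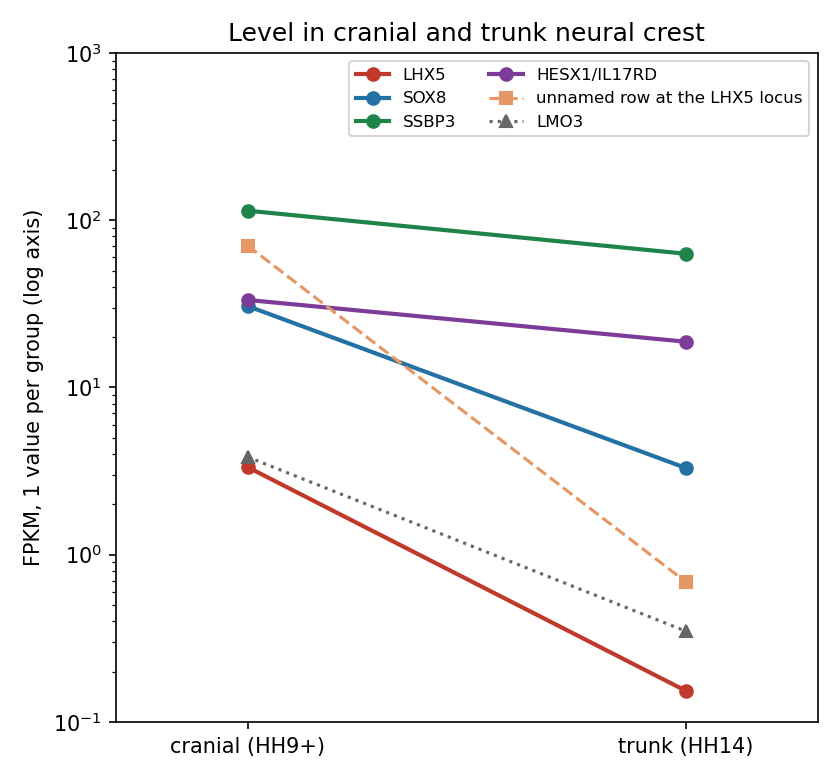
Group levels in FPKM on a log axis for cranial (left) and trunk (right) neural crest, 1 deposited value per group and no error bar. LHX5 and SOX8 slope steeply, at 3.34 against 0.153 and 30.7 against 3.30 FPKM, while SSBP3 and HESX1/IL17RD stay at 63.0 and 18.8 FPKM in the trunk; the unnamed row at the LHX5 locus and LMO3 are drawn for comparison.

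LHX5, a LIM homeodomain factor of the anterior neural plate and forebrain, has 3.34 FPKM for cranial and 0.153 FPKM for trunk crest in the authors' deposited table. The cranial level itself was low, 180th of the 212 listed rows, and the trunk level was 201st. The ratio was 21.8-fold, the 11th largest of the table, with a log2 fold of 4.44 and an implied SE of 0.90 (q = 0.000120 in the authors' deposited table). A 95% interval built from that SE runs from 6.38-fold to 74.4-fold. In absolute terms the difference was 3.18 FPKM, the smallest of the 4 rows and 165th of the table. LHX5 thus combined one of the larger ratios of the table with one of its smaller differences in level.

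The LHX5 row (ENSGALG00000008303) covers chromosome 15 from 12878730 to 12889471, a locus that a second row, ENSGALG00000023187, carries with the same start and end. That second row has no gene name in the table and has 70.5 FPKM for cranial and 0.686 FPKM for trunk crest in the authors' deposited table. LHX5 held 4.52% of the summed level of both rows in cranial cells and 18.3% in trunk cells. The rows have separate identifiers, so the sum need not be the level of a single gene. How the authors' software divided reads between overlapping transcripts is not stated, so the LHX5 level is uncertain in both groups. The next protein-coding gene beside LHX5 in the chicken gene table of assembly GRCg7b is SDSL, which encodes a serine dehydratase-like enzyme. Its row begins 651 bases beyond the LHX5 locus and has 3.47 FPKM for cranial and 0.347 FPKM for trunk crest in the authors' deposited table. The cranial value was 9.997-fold the trunk value (q = 0.00312). On the other side of LHX5, the nearest listed locus lies 1.24 Mb away. It is that of the nitric oxide synthase gene NOS1 and, like the LHX5 locus, is carried by 2 listed rows. RBM19, the neighbour of LHX5 in GRCg7b, has no listed row under its symbol.

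SOX8 was the member with both a high cranial level and a large ratio. Its row (ENSGALG00000005263, chromosome 14 from 5768067 to 5773293) has 30.7 FPKM for cranial and 3.30 FPKM for trunk crest in the authors' deposited table. Those are the 43rd highest cranial and the 94th highest trunk value of 212, so SOX8 transcripts were listed in trunk crest as well, at a level above the median row (2.72 FPKM). The ratio was 9.31-fold, 47th of the table, with a log2 fold of 3.22, an implied SE of 0.68 and a 95% interval from 3.67-fold to 23.6-fold (q = 0.000288 in the authors' deposited table). The difference in level was 27.4 FPKM, 33rd of the table. SOX8 shares its locus with no other row, and neither of the genes next to it in GRCg7b has a listed row under its symbol. The nearest listed neighbour, the calcium channel gene CACNA1H, ends 401 kb before it and differed 2.31-fold, again with the higher value in cranial crest, in the authors' deposited table.

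SSBP3, the LDB1-binding cofactor, had by far the highest levels of the 4 in either group. Its row (ENSGALG00000010774, chromosome 8 from 25923228 to 25974715) has 114 FPKM for cranial and 63.0 FPKM for trunk crest in the authors' deposited table, the 10th highest cranial and the 4th highest trunk value of 212. The ratio was 1.81-fold, 186th of the table, with a log2 fold of 0.85, an implied SE of 0.26 and a 95% interval from 1.27-fold to 2.58-fold (q = 0.0380 in the authors' deposited table). Only 19 rows of the table have a larger q, and the largest is 0.0485. The difference in level was nevertheless 51.0 FPKM, the largest of the 4 rows and 17th of the table. SSBP3 therefore ranked near the bottom of the table by ratio and near its top by difference in level. The trunk level of SSBP3 exceeded the cranial level of each of the other 3 rows.

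The row that joins HESX1 and IL17RD (ENSGALG00000005506, chromosome 12 from 8782029 to 8844500) has 33.4 FPKM for cranial and 18.8 FPKM for trunk crest in the authors' deposited table. These are the 40th highest cranial and 25th highest trunk values of 212. The ratio was 1.78-fold, 191st of the table, with a log2 fold of 0.83, an implied SE of 0.25 and a 95% interval from 1.26-fold to 2.51-fold (q = 0.0389 in the authors' deposited table). HESX1 and IL17RD are direct neighbours in GRCg7b, and the deposited row gives them 1 identifier and 1 value per group. Its level cannot be divided between a homeodomain repressor and an FGF pathway inhibitor, and no statement about HESX1 alone can be made from it. The flanking genes in GRCg7b, ARHGEF3 and APPL1, have no listed row under their symbols, and the nearest listed row, NCKIPSD, lies 384 kb further on at 2.41-fold in the authors' deposited table.

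**Figure D2:**
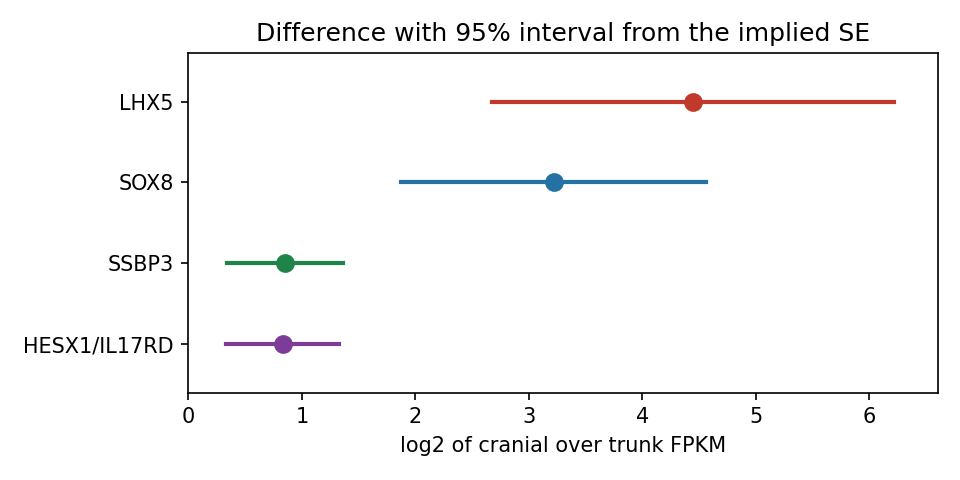
Log2 of the cranial over the trunk value (point) for the 4 rows. The line is a 95% interval from the implied SE of the authors' test. A value of 0 would mean equal levels, and the limit on q keeps the interval of every listed row above 0. The intervals of LHX5 and SOX8 overlap each other and lie above those of SSBP3 and HESX1/IL17RD, which also overlap each other. The limit on q partly sets this separation, since rows with a large implied SE are listed only with a large fold.

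Set side by side, the log2 folds of LHX5 (4.44) and SOX8 (3.22) had overlapping 95% intervals, so their order by ratio is not resolved. The same holds for SSBP3 (0.85) and HESX1/IL17RD (0.83). No interval of the first pair overlapped one of the second. The limit on q partly sets this separation. LHX5 and SOX8, with implied SEs of 0.90 and 0.68, could be listed only with a large fold. SSBP3 and HESX1/IL17RD, with 0.26 and 0.25, could be listed with a smaller one. Intervals of rows picked by such a limit need not keep their 95% coverage. These intervals carry the authors' error model and no library values, and differences between genes were not tested. FPKM is scaled to transcript length, which allows a rough comparison of levels between genes. It stays rough because the cDNA was amplified, the HESX1/IL17RD row joins a pair of genes, and the LHX5 level is uncertain. In cranial cells SSBP3 stood highest, 3.42 times the HESX1/IL17RD row, followed by HESX1/IL17RD, SOX8 and LHX5. The cranial levels of SOX8 and HESX1/IL17RD were close, with a ratio of 0.920, while in trunk cells SOX8 stood at 0.176 of HESX1/IL17RD. The order of the 4 levels was the same in trunk cells. Without a spread over libraries it cannot be said which neighbours in that order differ.

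**Figure D3:**
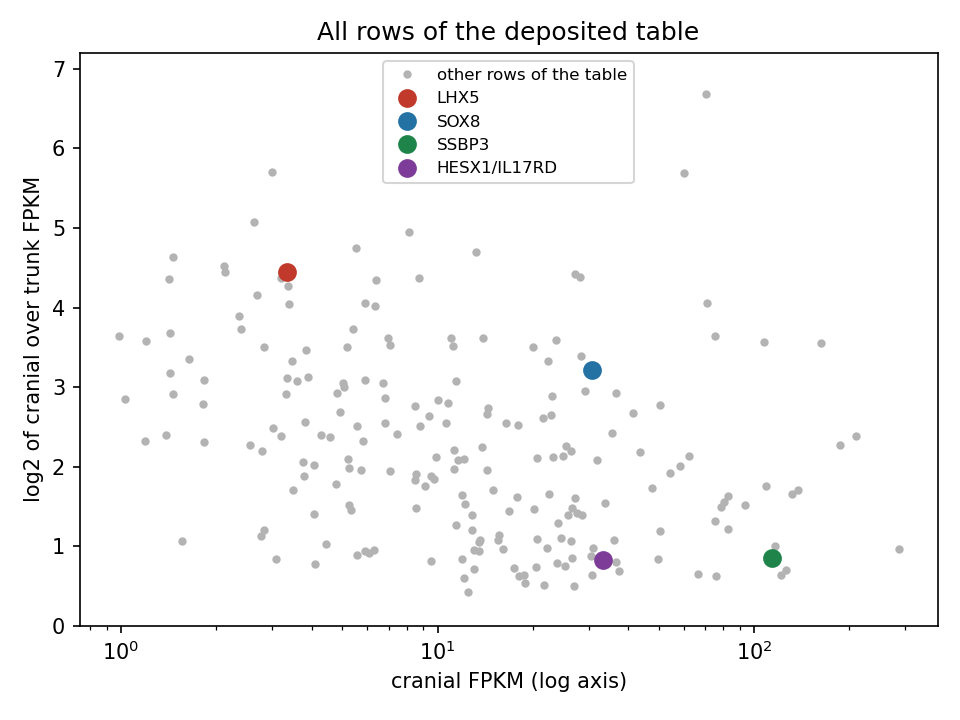
Log2 of cranial over trunk FPKM against the cranial FPKM (log axis) for all 212 rows, each point 1 row, with the 4 members in colour. LHX5 lies high at a low level, SOX8 above the middle at 30.7 FPKM, and SSBP3 and HESX1/IL17RD along the lower edge at 114 and 33.4 FPKM. The limit on q bounds where a row can lie, since rows with a large implied SE are listed only with a large fold.

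Levels this low make the ratio of LHX5 depend on how small values are treated. Adding 1 FPKM to the cranial and the trunk value of each row gave LHX5 a log2 fold of 1.91, and its place in the table moved to 62nd from 11th. SOX8 stood at 2.88 by that measure and moved to 13th from 47th, above LHX5. SSBP3 (0.84) and HESX1/IL17RD (0.80) were almost the same as without it, as their values are far above 1 FPKM. The median over all rows fell to 1.51 with 1 FPKM added, and LHX5 and SOX8 stayed above it while the other pair stayed below. With 5 FPKM added, LHX5 (0.69) stood below the median of all rows (0.84), and SOX8 (2.10) was the 1 member above it.

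**Figure D4:**
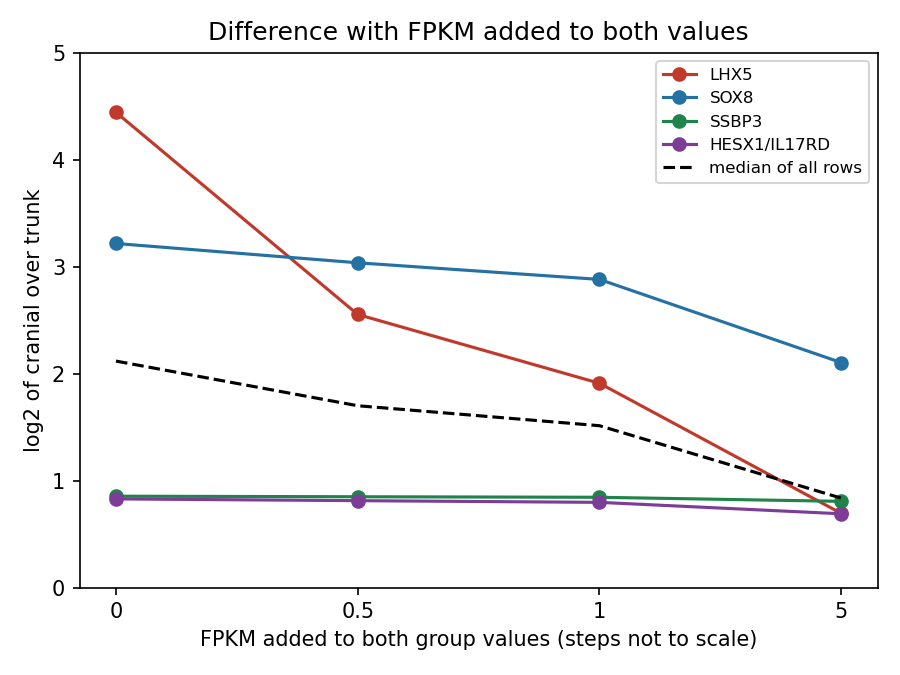
Log2 of cranial over trunk after adding 0, 0.5, 1 or 5 FPKM (steps not to scale) to both group values, for the 4 rows (solid) and for the median of all 212 rows (dashed). LHX5 starts highest at 4.44 and drops to 0.69, crossing SOX8, which ends at 2.10; SSBP3 and HESX1/IL17RD change little.

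The partners of these regulators were sought in the table by symbol. Of 22 LIM homeodomain factors and cofactors, 3 had a listed row, LHX5, SSBP3 and LMO3, and LDB1, LDB2, SSBP2, SSBP4 and the other LHX and ISL genes had none under their symbols. LMO3, a LIM-only protein without a homeodomain that also binds LDB1, has 3.84 FPKM for cranial and 0.348 FPKM for trunk crest in the authors' deposited table. That is an 11.0-fold difference with a log2 fold of 3.46 and an implied SE of 0.90 (q = 0.00715 in the authors' deposited table). The cranial level was close to that of LHX5 (3.34 FPKM), while the trunk level was above that of LHX5 (0.153 FPKM). The median log2 fold of the 3 listed rows was 3.46, the value of LMO3, their only non-member, beside 2.12 for all rows. The 3 span low levels with large ratios (LHX5, LMO3) and a high level with a small ratio (SSBP3). LHX5 and LMO3, each with an implied SE of 0.90, could be listed only with a large fold, so the limit on q partly sets this contrast.

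Of 21 SoxE and neural crest specifier genes, SOX8 was the 1 listed row. SOX9 and SOX10, the other SoxE members, had no row under their symbols. Of 28 anterior patterning genes, 2 rows were listed, LHX5 and HESX1/IL17RD, and OTX2, SIX3, PAX6, RAX and FEZF2 were among those without a row. The lists of 16 HESX1 partners and pituitary genes and of 22 FGF feedback genes each had 1 listed row, the combined HESX1 and IL17RD row itself. LHX5 and SOX8 were 2 of 6 factors of the cranial circuit that the study is known for (POU4F3, LHX5, DMBX1, SOX8, TFAP2B and ETS1). POU4F3, DMBX1, TFAP2B and ETS1 had no row under their symbols. The list was chosen with earlier results of these data known, so it is no independent evidence of direction. Of 21 HOX and CDX genes of trunk identity, 0 were listed, in a table that holds no row higher in trunk cells. A gene without a row may have been equal, higher in trunk, unmeasured or listed under an untranslated name, since 94 rows carry no symbol here.

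LHX5 and HESX1 are also genes of forebrain tissue, and SOX8 is expressed outside the crest, so markers of other cells were looked up beside them. Of 8 surface ectoderm and placode markers, 2 were listed, the cadherin gene CDH1 with 24.9 FPKM for cranial and 5.65 FPKM for trunk crest and the splicing regulator ESRP1 with 2.56 FPKM for cranial and 0.532 FPKM for trunk crest in the authors' deposited table. These are 4.40-fold and 4.82-fold higher in cranial cells. Of 6 neural tube and forebrain markers, 5 mesoderm markers, 3 endoderm and notochord markers, and 3 endothelial and blood markers, 0 were listed. The part of other cells in the member rows was not tested.

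The rows most like each member were found by the distance between their pairs of log2 group values, over 114 other rows with a symbol. Likeness here rests on 2 values per row. For LHX5 they were the ephrin receptor gene EPHA10 (distance 0.32), ELFN2 (0.42) and the tubulin-binding gene STMN4 (0.50). For SOX8 they were NACAD (0.21), the secreted factor gene CYTL1 (0.30) and the potassium channel partner gene DPP6 (0.45). SSBP3 was nearest to the mitochondrial ribosomal protein gene MRPL13 (0.12) and to the basement membrane genes LAMB1 (0.33) and NID2 (0.94). HESX1/IL17RD was nearest to the kinase gene BMP2K (0.18), the RNA polymerase I subunit gene POLR1A (0.31) and the collagen hydroxylase gene P4HA1 (0.35).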

How the data were processed

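Sorted cells gave total RNA, amplified as cDNA for single-read sequencing, per the labels' protocols. The submitters' processing notes list TopHat, Cufflinks, Cuffdiff 2.1 and galGal4, without roles. The deposited table holds 1 value per group, read as FPKM because Cuffdiff writes that unit. The authors' log2 fold is trunk over cranial and was turned round here. The authors' deposited p-value differed by less than 1% from a normal two-sided p of their score in all 193 rows with a p of at least 1e-10. Coordinates are as deposited. Their build is not settled, since 8 rows use sequence names of an older assembly than galGal4.

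Ratios, ranks, implied SEs and 95% intervals were computed with Python 3.11.15, pandas 2.3.3 and SciPy 1.17.1. The SE calculation was run on simulated scores built as the log2 fold over a known SE. That run checks the arithmetic only and cannot show that the authors' score has this form. Of 212 rows, 118 carried a symbol of the GRCg7b gene table, or 1 of 4 translated names. SSBP3 was matched with its species suffix. Members and lists were chosen with earlier results of these data known. Named rows were the members, rows at their loci, nearest listed neighbours, the 3 most similar rows and list members. Tests written for values per library could not be run. Alternatives were 0.5, 1 or 5 FPKM added, stricter limits, summed rows at a locus and untranslated names.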

Additional observations from a re-analysis of the deposited data

How the results depend on the processing

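No alternative could have changed the direction of a member. Equal amounts were added to both values, and every listed row, also the one summed with LHX5, was higher in cranial cells. The log2 fold of LHX5 (4.44) became 2.55, 1.91 and 0.69 with 0.5, 1 and 5 FPKM added. Summing the rows at its locus gave 6.46. LHX5 held 4.52% of that cranial sum and 18.3% of the trunk sum, so 6.46 mostly describes the unnamed row. SOX8 (3.22) moved beyond its implied SE with 5 FPKM added, to 2.10. SSBP3 and HESX1/IL17RD moved by less than their implied SE with each amount added. Of the 4 members marked by the authors, 2 were left at a q under 0.01, 2 at 0.001, 2 at 2-fold, 2 at 4-fold, and 2 (SOX8 and SSBP3) without shared loci and double names. Of all 212 rows, 10 share a locus with another row and 6 carry 2 names. At least 1 FPKM in both groups left 3 members, without LHX5, and 63 of all 212 rows have a trunk value under 1 FPKM. Rows in any list numbered 7 with translated names and 4 as listed, because the names of 3 rows were then not matched. No paired analysis was possible because each row has 1 cranial and 1 trunk value. Leaving out libraries could not be run for the same reason, and the limit that depth sets on LHX5 cannot be given.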

Other observations

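A further 5 transcription regulators in the table, chosen by function once their values had been seen, lay in ratio between the LHX5 and SOX8 pair and the SSBP3 and HESX1/IL17RD pair. RBPJL, a paralogue of the Notch effector RBPJ, has 3.90 FPKM for cranial and 0.447 FPKM for trunk crest in the authors' deposited table, 8.73-fold higher (q = 0.00689). MDFI, an inhibitor of myogenic helix-loop-helix factors, was 5.01-fold higher at 5.80 FPKM for cranial against 1.16 FPKM for trunk (q = 0.0440), and RFX5, a regulator of MHC class II genes, 4.27-fold higher at 5.21 FPKM for cranial against 1.22 FPKM for trunk (q = 0.00746), in the authors' deposited table. RCOR3, of the CoREST corepressor family, and CREBL2, a bZIP protein, were 1.96-fold and 2.07-fold higher in cranial cells, with cranial levels of 16.1 and 13.5 FPKM and trunk levels of 8.22 and 6.52 FPKM, in the authors' deposited table. LHX5 and SOX8 had larger ratios than each of these 5 rows, and SSBP3 and HESX1/IL17RD had smaller ratios than all 5. LMO3, the LIM-only protein described above and not among the 5, was 11.0-fold higher in cranial cells, above SOX8 at 9.31-fold. The order thus describes these 5 rows and does not hold for every regulator listed. The rows were not tested against each other.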
